A study of Mus musculus with 81 samples.

Results

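The 9 genes described here encode the receptor chains of the type I and type II interferons (Ifnar1, Ifnar2, Ifngr1 and Ifngr2), interferon-β (Ifnb1) and the feedback inhibitors Socs1, Socs2, Socs3 and Cish, and were picked by symbol from the 55450 genes counted. RNA was sequenced from bone marrow cells and macrophages of C57BL/6 mice aged 8 to 10 weeks. WT animals were H3f3a fl/fl:H3f3b fl/fl without Cre, and H3.3 cKO animals carried the same floxed alleles with LysM cre/cre, which removes both genes of the histone variant H3.3 in myeloid cells. Because the Cre sits in the Lyz2 gene, loss of H3.3 and loss of Lyz2 go together in every cKO animal and cannot be told apart. Bone marrow was grown in 20% L929-conditioned medium.

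Groups held 3 libraries unless stated. WT and cKO were compared on days 3, 5 and 7 of culture (the 12 libraries of days 3 and 5 are labelled BMDM progenitors), and on day 8 without treatment or after 12 h of IFNγ, where each cKO group had 2 libraries. Peritoneal macrophages were taken from both genotypes. In the antibody experiment, cells were left without antibody or received an IFNAR1 antibody or an isotype control at 10 µg/mL, renewed every 12 h and ended on day 6. The last experiment held 3 sets of WT and cKO bone marrow-derived macrophages (BMDMs) and the double KOs H3.3cKO:StingKO, H3.3cKO:MavsKO and H3.3cKO:Irf7KO. The labels do not tie a set to a double KO. The labels number the libraries of a group as biological replicates and do not say whether these were separate animals or cultures.

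Of 81 libraries, 79 were placed in 27 groups, and 2 cKO libraries of day 8 whose labels conflict on IFNγ were left out of all comparisons. A time course library held 14419697 to 20220329 counts on genes and a day 8 library 3614967 to 9879339. Peritoneal libraries held 7625225 to 23381318, antibody libraries 5295144 to 34380735, and those of the BMDM sets and double KOs 21504555 to 45581528. H3f3a was at 15 CPM in cKO and 54.9 CPM in WT on day 3, and was lower in cKO in each experiment. CPM, the counts scaled to 1000000 counts on genes, are TMM-scaled throughout. H3f3b was at 35 to 50 CPM in cKO against 305 to 376 CPM in WT in the antibody experiment, but at 202 against 234 CPM on day 3. Tmem173, the gene of STING, had 5.51 CPM in the StingKO, whereas Mavs mRNA was at 37.5 CPM in the MavsKO against 38.9 to 49.8 CPM in the cKO sets. Summed macrophage markers were at 2472 CPM or more in every library. Peritoneal markers summed to 3551 to 4325 CPM in peritoneal macrophages and to 3 to 34 CPM elsewhere. The cKO day 8 IFNγ library of replicate 1 stood apart, with the lowest depth of all and 339 CPM of summed stromal markers against 8.13 to 108 CPM in the other day 8 libraries. Of its reads 57.1% were unmapped, against 12.6% to 18.3% in the other placed day 8 libraries. In BMDM sets 1 and 3, WT libraries of the same number deviated from their group means together (r = 0.689, 0.716 and 0.04 over 7616 genes). For cKO libraries of these sets r was 0.506, 0.205 and 0.467, so the 2 sets are not treated as independent of each other.

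Type I interferons bind a receptor made of IFNAR1 and IFNAR2, and interferon-γ binds one made of IFNGR1 and IFNGR2. The receptor-bound JAK kinases then phosphorylate STAT proteins, which enter the nucleus and switch on interferon-stimulated genes. SOCS1, SOCS3, SOCS2 and CIS (the product of Cish) are themselves induced by STATs and dampen signalling, SOCS1 and SOCS3 by blocking JAKs, and CIS and SOCS2 mainly at receptors that use STAT5. In macrophages, interferon-β is the type I interferon made early after nucleic acids or microbial products are sensed.

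In GRCm38 with GENCODE M21, 3 receptor genes lie close together on chromosome 16, namely Ifnar2 at chr16:91372783-91405589, Ifnar1 at chr16:91485238-91507441 and Ifngr2 at chr16:91547072-91565623, all on the + strand. Ifngr1 lies at chr10:19591949-19610229 on the + strand. Ifnb1, at chr4:88522025-88522774 on the − strand, has 750 exonic bases, the least of all 9. Socs1 lies at chr16:10782240-10785536, Socs2 at chr10:95385362-95417180 and Socs3 at chr11:117966079-117970047, all on the − strand, and Cish at chr9:107296026-107302784 on the + strand. Ifnar2 overlaps the same-strand gene Gm21970, and Cish overlaps the antisense genes Gm17040 and Gm17041. Counting ignored strand, so reads of Cish and of its antisense neighbours cannot be told apart.

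Promoter windows of RefSeq (GRCm38.p6, 250 bases before to 50 after the transcript start) were found for 8 of the 9 genes, Socs2 being the exception. The letters TTCNNNGAA, the form of site that STAT dimers are known to bind, read the same on both strands and stood in 8.3% of all 32851 windows. The letters GAAANNGAAA, or TTTCNNTTTC on the other strand, the core of the interferon-stimulated response element, stood in 3.44%. Socs1 held 2 overlapping matches to GAAANNGAAA, which began 83 and 77 bases before its start. Single matches to TTCNNNGAA began 5 bases before the start in Ifnar1, 214 before in Ifnar2 and 154 before in Socs3, and Cish held 2. Neither motif was found in the windows of Ifngr1, Ifngr2 and Ifnb1. The 3 sequences below belong to the inhibitors that rose in both genotypes under IFNγ on day 8 (the receptor chain Ifnar2 rose in both too, by less, and is not printed), with matches in capitals, 5′ to 3′ on the strand of the gene: Socs1 from chr16:10785537-10785786 (−), Socs3 from chr11:117969501-117969530 (−) and Cish from chr9:107296655-107296684 (+), the last of which lies in an annotated 5′ UTR. A match is a description of letters and not a measured site.
Socs1: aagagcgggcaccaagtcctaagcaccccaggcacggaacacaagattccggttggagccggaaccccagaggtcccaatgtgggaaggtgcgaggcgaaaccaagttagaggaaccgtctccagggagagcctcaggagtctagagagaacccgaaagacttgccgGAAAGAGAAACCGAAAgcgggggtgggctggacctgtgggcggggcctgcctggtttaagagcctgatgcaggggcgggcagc
Socs3: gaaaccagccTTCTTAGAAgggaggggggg
Cish: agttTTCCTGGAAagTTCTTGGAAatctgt

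Levels of different genes are compared here only as CPM per kb of exon. In WT BMDMs of day 8 without IFNγ, the receptor chains had group means of 41.9 CPM per kb for Ifngr1, 30.3 for Ifngr2, 26 for Ifnar1 and 18.8 for Ifnar2. The inhibitors were far lower there, with 1.5 CPM per kb for Socs3, 0.956 for Socs1, 0.0378 for Socs2 and 0.0303 for Cish. After IFNγ in WT, Socs1 stood at 122 CPM per kb, above all 4 receptor chains (23.5 to 43.8 CPM per kb). In WT peritoneal macrophages the order was Ifngr1 at 112 CPM per kb, Socs3 at 59.9, Ifnar2 at 49.98, Ifnar1 at 23.6 and Ifngr2 at 19.3. Socs3 was thus among the higher members in peritoneal cells and among the lower in untreated day 8 BMDMs. These experiments were normalized separately and no test was run between them.

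Ifnar1, the chain that recruits TYK2, was lower in cKO than in WT in most comparisons of the 2 genotypes. On day 3 its levels were 252, 210 and 217 CPM in WT and 186, 155 and 165 CPM in cKO. All cKO libraries lay below all WT libraries. The log2 fold change was -0.42 ± 0.10 (SE), that is 1.34-fold lower in cKO, with an adjusted p of 0.0148 (edgeR's quasi-likelihood test, Benjamini-Hochberg adjustment over all genes tested). By the same test at an adjusted p under 0.05, 4 members were called on day 3 (Ifnar1, Ifnb1, Socs1 and Socs2), where 7.73% of 15955 genes tested were called. In such bulk samples, fewer cells of a type and less RNA per cell cannot be told apart. The Ifnar1 call was lost without WT day 3 replicate 1, cKO replicate 2 (-0.37, adjusted p = 0.0852) or cKO replicate 3, and with no filter on low counts (-0.44, adjusted p = 0.0995). On day 5 Ifnar1 had 210, 192 and 200 CPM in WT and 166, 171 and 170 CPM in cKO, a difference of -0.25 ± 0.10 with an adjusted p of 0.254. On day 7 it had 253, 224 and 231 CPM in WT and 190, 192 and 188 CPM in cKO (-0.31 ± 0.10, adjusted p = 0.125). The genotypes did not overlap on either day, although neither difference was called.

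The 3 BMDM sets gave the same direction for Ifnar1 with smaller errors, though sets 1 and 3 are not independent of each other. Set 1 had 220, 215 and 214 CPM in WT and 182, 175 and 173 CPM in cKO (-0.29 ± 0.06, adjusted p = 0.000331). Set 2 had 246, 245 and 244 CPM in WT and 191, 179 and 179 CPM in cKO (-0.42 ± 0.06, adjusted p = 7.26e-06). Set 3 had 212, 207 and 206 CPM in WT and 174, 172 and 159 CPM in cKO (-0.31 ± 0.06, adjusted p = 0.000186). No WT library overlapped a cKO library of its set, and the 3 calls held without any 1 of the 27 libraries. The call of set 1 was lost when only its own libraries were fitted (adjusted p = 0.0534), and that of set 3 with no filter (adjusted p = 0.0578). Calls were common in these sets, with 34.7%, 21.0% and 34.9% of 18083 genes called in sets 1, 2 and 3, while 4, 3 and 3 members were called.

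Without antibody, Ifnar1 had 242, 242 and 239 CPM in WT and 165, 178 and 178 CPM in cKO (-0.47 ± 0.12, adjusted p = 0.0312). With control antibody it had 240, 240 and 241 CPM in WT and 167, 178 and 195 CPM in cKO (-0.42 ± 0.12, adjusted p = 0.0736). With IFNAR1 antibody the genotypes overlapped, at 243, 178 and 231 CPM in WT and 249, 198 and 196 CPM in cKO (-0.02 ± 0.12). The call without antibody was lost without WT replicate 2 or 3, without any 1 cKO library (adjusted p up to 0.119, without cKO replicate 1), without WT control antibody replicate 1, and with no filter (adjusted p = 0.0766). A change of the IFNAR1 antibody effect between genotypes was not called for Ifnar1 (0.40 ± 0.18, adjusted p = 0.85), nor for any other member, and 0.0% of 17191 genes were called for this difference (975 at an unadjusted p under 0.05). In peritoneal macrophages Ifnar1 had 106, 153 and 160 CPM in WT and 129, 152 and 158 CPM in cKO, and the groups overlapped (0.06 ± 0.19). Over all 12 comparisons of cKO with WT, Ifnar1 was called lower in 5, its estimate was lower in 11, and the genotypes did not overlap in 10. These counts include both set 1 and set 3, which are not independent of each other. The share of all genes without overlap was not computed, here or for the other members.

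**Figure D1:**
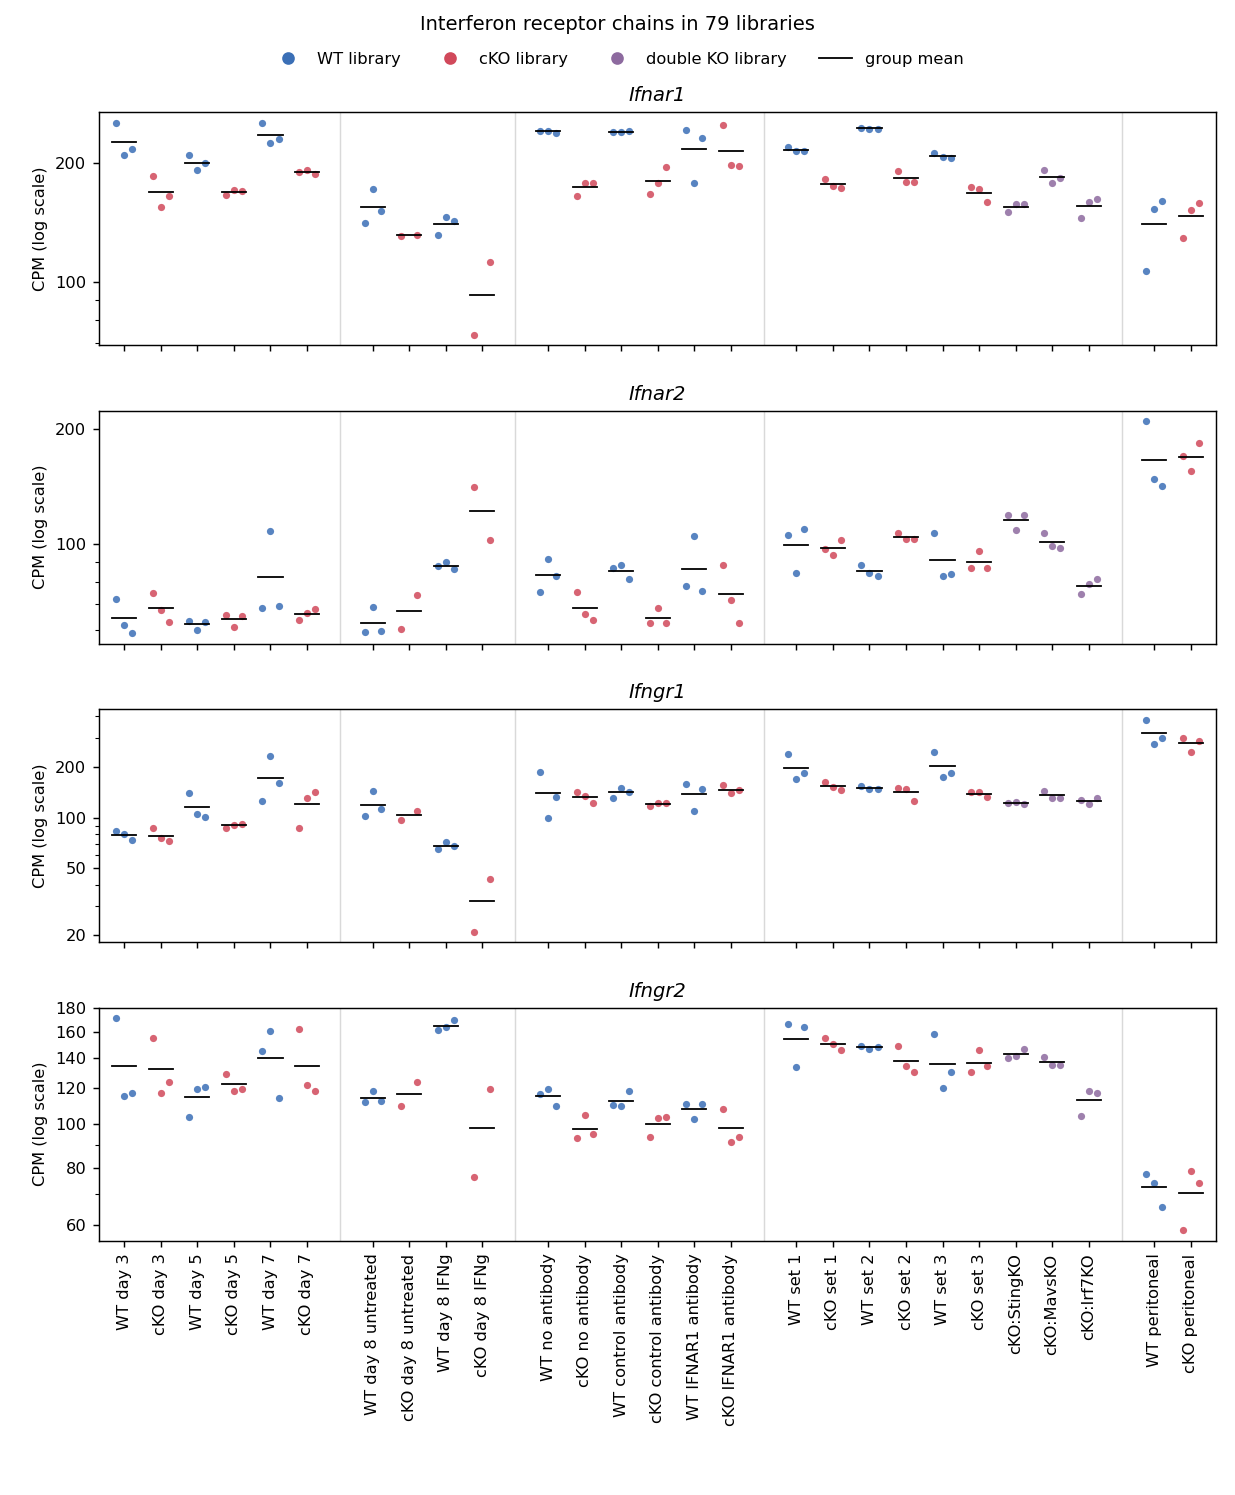
Levels of the 4 receptor chains in CPM in each placed library, by group, with WT and cKO apart. Each point is 1 library. Ifnar1 points of cKO lie below those of WT in 10 of 12 comparisons, and the highest Ifnar2 and Ifngr1 values are those of peritoneal libraries.

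Of the other receptor chains, Ifnar2 was split in direction between genotypes, while Ifngr1 and Ifngr2 had lower estimates in cKO in most comparisons. Ifnar2, the chain with which STAT2 associates, was called in 1 of 12 comparisons, higher in cKO of set 2, at 107, 103 and 103 CPM against 88.6, 84.1 and 82.9 CPM in WT (0.29 ± 0.09, adjusted p = 0.024). That call was lost without WT replicate 2 or 3 or cKO replicate 1 or 3 (adjusted p up to 0.0866). Its estimate was higher in cKO in 6 comparisons and lower in 6. Ifngr1, the ligand-binding chain of the IFNγ receptor, was called lower in cKO in sets 1 and 3. The estimate of Ifngr1 was lower in cKO in 11 comparisons and higher in 1, and the genotypes did not overlap in 5. In set 1 it had 239, 170 and 185 CPM in WT and 162, 152 and 147 CPM in cKO (-0.37 ± 0.11, adjusted p = 0.0117), and WT replicate 1 stood above the rest. Without that library the difference was -0.20 with an adjusted p of 0.128. Set 3 had 247, 176 and 185 CPM in WT and 142, 142 and 133 CPM in cKO (-0.54 ± 0.11, adjusted p = 0.000395), which held without any 1 library. WT replicate 1 stood above the rest here too, and without it the difference was -0.38 with an adjusted p of 0.00533. Sets 1 and 3 are not independent of each other. B cell markers summed to 110 to 188 CPM in WT and 42.7 to 59.2 CPM in cKO of set 1, and to 95 to 192 against 37.6 to 58.8 CPM in set 3. The part of these cells in the Ifngr1 values was not tested. Ifngr2, the chain that brings JAK2, was called in none of the 12 comparisons, with an estimate lower in cKO in 9 and higher in 3.

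Ifnb1 was near 0 in most libraries and is given as raw counts. All 36 WT libraries held between 0 and 3 counts, 18 in total, and 23 of them held none. The 34 placed cKO libraries held 209 counts in all, 11 of them were at 0 and 8 had over 3 counts. The 9 double KO libraries held 16 counts, with at most 5 in one. The level that 3 counts stand for was between 0.0658 and 0.83 CPM, depending on depth, so lower levels were not detectable.

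The Ifnb1 counts of cKO lay farthest above this floor on day 3 and after IFNγ. On day 3, WT had 1, 0 and 0 counts and cKO had 44, 13 and 16 counts, or 2.76, 0.888 and 0.835 CPM. Summed over the group and scaled by depth, 73 counts against 1 gave a ratio of 72.2, with an exact 95% interval of 12.6 to 2892 that covers counting error only. The test called this difference (adjusted p = 0.035), with a fitted log2 fold change of 5.77 ± 1.59 that depends on the prior count. Ifnb1 passed the filter on low counts only through cKO libraries, where it was high, so this adjusted p is not separate support. The call was lost without any 1 of the WT day 3 libraries, without cKO replicate 1 (4.96, adjusted p = 0.133) or without cKO replicate 2. On day 5, WT had 1 count in each library and cKO had 32, 1 and 0 counts, so that the ratio of 10.4 (3.25 to 52.8) rested on a single library. On day 7, WT had 2, 0 and 0 counts and cKO had 10, 1 and 2 counts, a ratio of 6.53 (1.48 to 59.6) in which 1 library again held most counts.

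On day 8 with IFNγ, cKO libraries held 3 and 59 counts, or 1.8 and 6.94 CPM, against 0, 1 and 3 counts in WT with IFNγ. The summed counts gave a ratio of 30.02 (11.2 to 114), and the library with 59 counts, replicate 2, carried nearly all of it. Ifnb1 did not pass the filter on low counts on day 8. It was called by DESeq2 (4.78, adjusted p = 0.0104) and with no filter (4.76, adjusted p = 1.29e-10). Without untreated cKO replicate 1 or 2, or without cKO IFNγ replicate 1, a cKO group held 1 library. Ifnb1 then passed the filter through the library with 59 counts alone, with estimates of 4.78, 4.77 and 5.31. Those fits add no support for the difference. Untreated day 8 libraries held 0, 1 and 1 counts in WT and 0 and 3 in cKO. WT libraries of all 3 BMDM sets were at 0, and their cKO libraries held 3, 1 and 0 counts in set 1, 2, 0 and 0 in set 2, and 4, 3 and 2 in set 3. The double KOs held 1, 1 and 3 counts with StingKO, 0, 5 and 0 with MavsKO, and 2, 0 and 4 with Irf7KO. Peritoneal macrophages held 1 count in 6 libraries. In the antibody experiment no library held over 5 counts, and that one was cKO with IFNAR1 antibody, replicate 1.

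**Figure D2:**
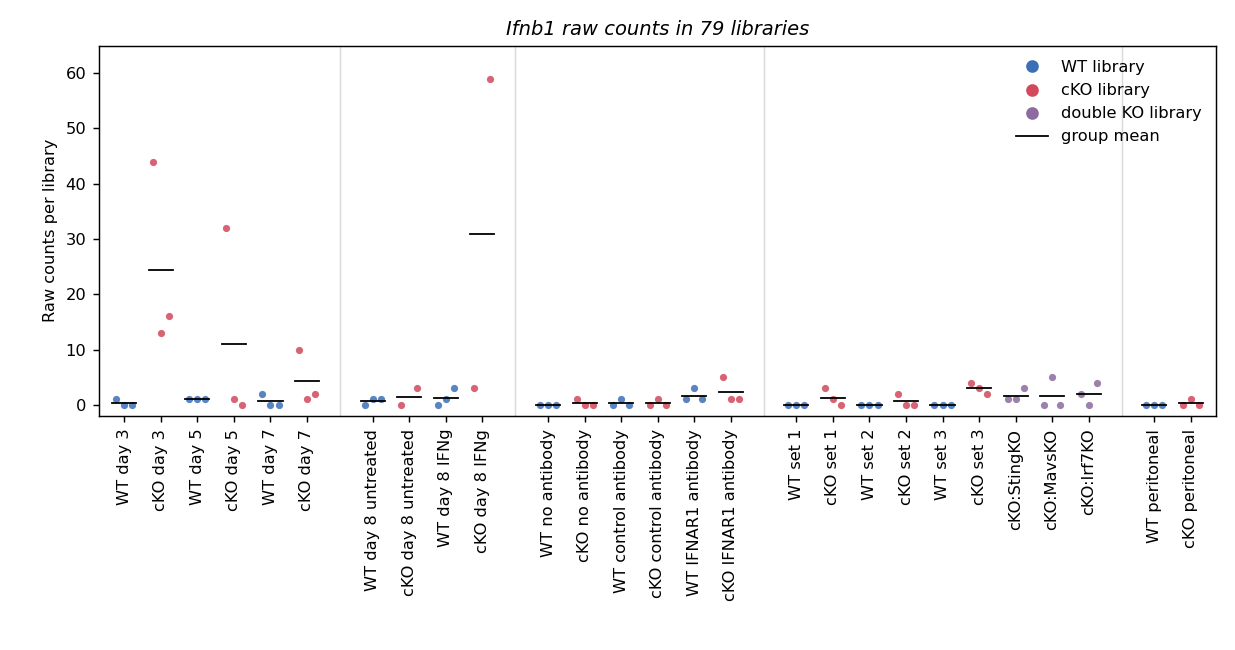
Raw Ifnb1 counts in each placed library, by group, with WT, cKO and double KO apart. Each point is 1 library. WT libraries hold 0 to 3 counts, and the highest are cKO day 8 IFNγ with 59 and cKO day 3 with 44.

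Socs1, the strongest brake on IFNγ signalling among the SOCS proteins, was higher in cKO on days 3 and 5. Over all 12 comparisons of cKO with WT, it was called higher in 5, with estimates higher in 9 and lower in 3. The lower estimates, down to -1.04 and not called, were those of peritoneal macrophages and of cells without antibody or with IFNAR1 antibody. The counts include both set 1 and set 3, which are not independent of each other. On day 3 it had 3.27, 3.16 and 5.50 CPM in WT and 12.8, 10.3 and 13.1 CPM in cKO. The groups did not overlap, and cKO was 3.02-fold higher (log2 fold change 1.59 ± 0.37, adjusted p = 0.0148). On day 5 it had 1.91, 1.99 and 1.86 CPM in WT and 11.1, 4.12 and 5.11 CPM in cKO. This was 3.52-fold higher (1.82 ± 0.39, adjusted p = 0.0201), and cKO replicate 1 stood well above the other two. The day 3 call was lost without WT replicate 1 or 2 (1.43, adjusted p = 0.0808 without replicate 2). The day 5 call was lost without any 1 WT day 5 library, without cKO replicate 1 (1.27, adjusted p = 0.146) and with only the 2 groups fitted (adjusted p = 0.0897). On day 5, 1 member and 2.83% of genes were called. On day 7 Socs1 had 4.74, 1.89 and 2.58 CPM in WT and 6.41, 3.63 and 4.30 CPM in cKO, with overlap (0.62 ± 0.38, adjusted p = 0.438). No member was called on day 7, where 1.4% of genes were called.

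A change of the cKO effect between days was called for none of the members, with Socs1 at -0.97 ± 0.53 (adjusted p = 0.385) for day 7 less day 3. Of all genes, 0.0% were called for day 5 less day 3 (715 at an unadjusted p under 0.05) and 0.0439% for day 7 less day 3. Canonical interferon-stimulated genes summed on day 3 to 35.6 to 55.7 CPM in WT against 1429 to 2068 CPM in cKO, and on day 7 to 354 to 1779 CPM against 1246 to 2083 CPM. WT libraries thus overlapped cKO libraries in this sum on day 7 as they did in Socs1. Markers of other cells also differed on day 3, with B cell markers at 31.5 to 41.1 CPM in WT against 61.6 to 100.1 CPM in cKO, and 5 of 6 mast cell markers detected, Mcpt4 being at 0, at a sum of 11 to 20.1 against 35.8 to 49.6 CPM. Over all time course libraries, neutrophil markers summed to 74.6 to 4222 CPM, against 2820 to 7437 CPM for macrophage markers. Stromal markers summed to 4.38 to 124 CPM and eosinophil markers to 1.64 to 39.4 CPM. The part of any of these cells in the SOCS values was not tested.

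In all 3 BMDM sets Socs1 was again higher in cKO, though sets 1 and 3 are not independent of each other. WT had 1.17, 2.31 and 1.48 CPM in set 1, and cKO had 5.04, 2.91 and 3.01 CPM (1.11 ± 0.22, adjusted p = 0.000322). In set 2 it had 1.36, 1.63 and 1.56 CPM in WT and 2.71, 2.36 and 2.23 CPM in cKO (0.69 ± 0.22, adjusted p = 0.0239). In set 3 it had 1.93, 1.44 and 1.56 CPM in WT and 3.50, 3.85 and 3.50 CPM in cKO (1.12 ± 0.22, adjusted p = 0.000255). The genotypes did not overlap in any set. The calls of sets 1 and 3 held in every fit that left out 1 library, and that of set 2 was lost without WT set 2 replicate 1 (adjusted p = 0.101), WT replicate 3 or cKO replicate 1 and in the counts of 1 strand (adjusted p = 0.11). On day 8 without treatment Socs1 had 2.74, 3.07 and 2.53 CPM in WT and 5.99 and 6.15 CPM in cKO. These groups did not overlap and cKO was 2.18-fold higher, but the difference missed the threshold (1.13 ± 0.24, adjusted p = 0.0808), and no member was called where 0.612% of 13075 genes were. It was called without cKO IFNγ replicate 1 (1.11, adjusted p = 0.0179) or 2 (1.13, adjusted p = 0.0165), by DESeq2 (adjusted p = 0.0143), with no filter (0.00486), with only the groups compared (0.0249) and with the newer form of the edgeR fit (0.0399).

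**Figure D3:**
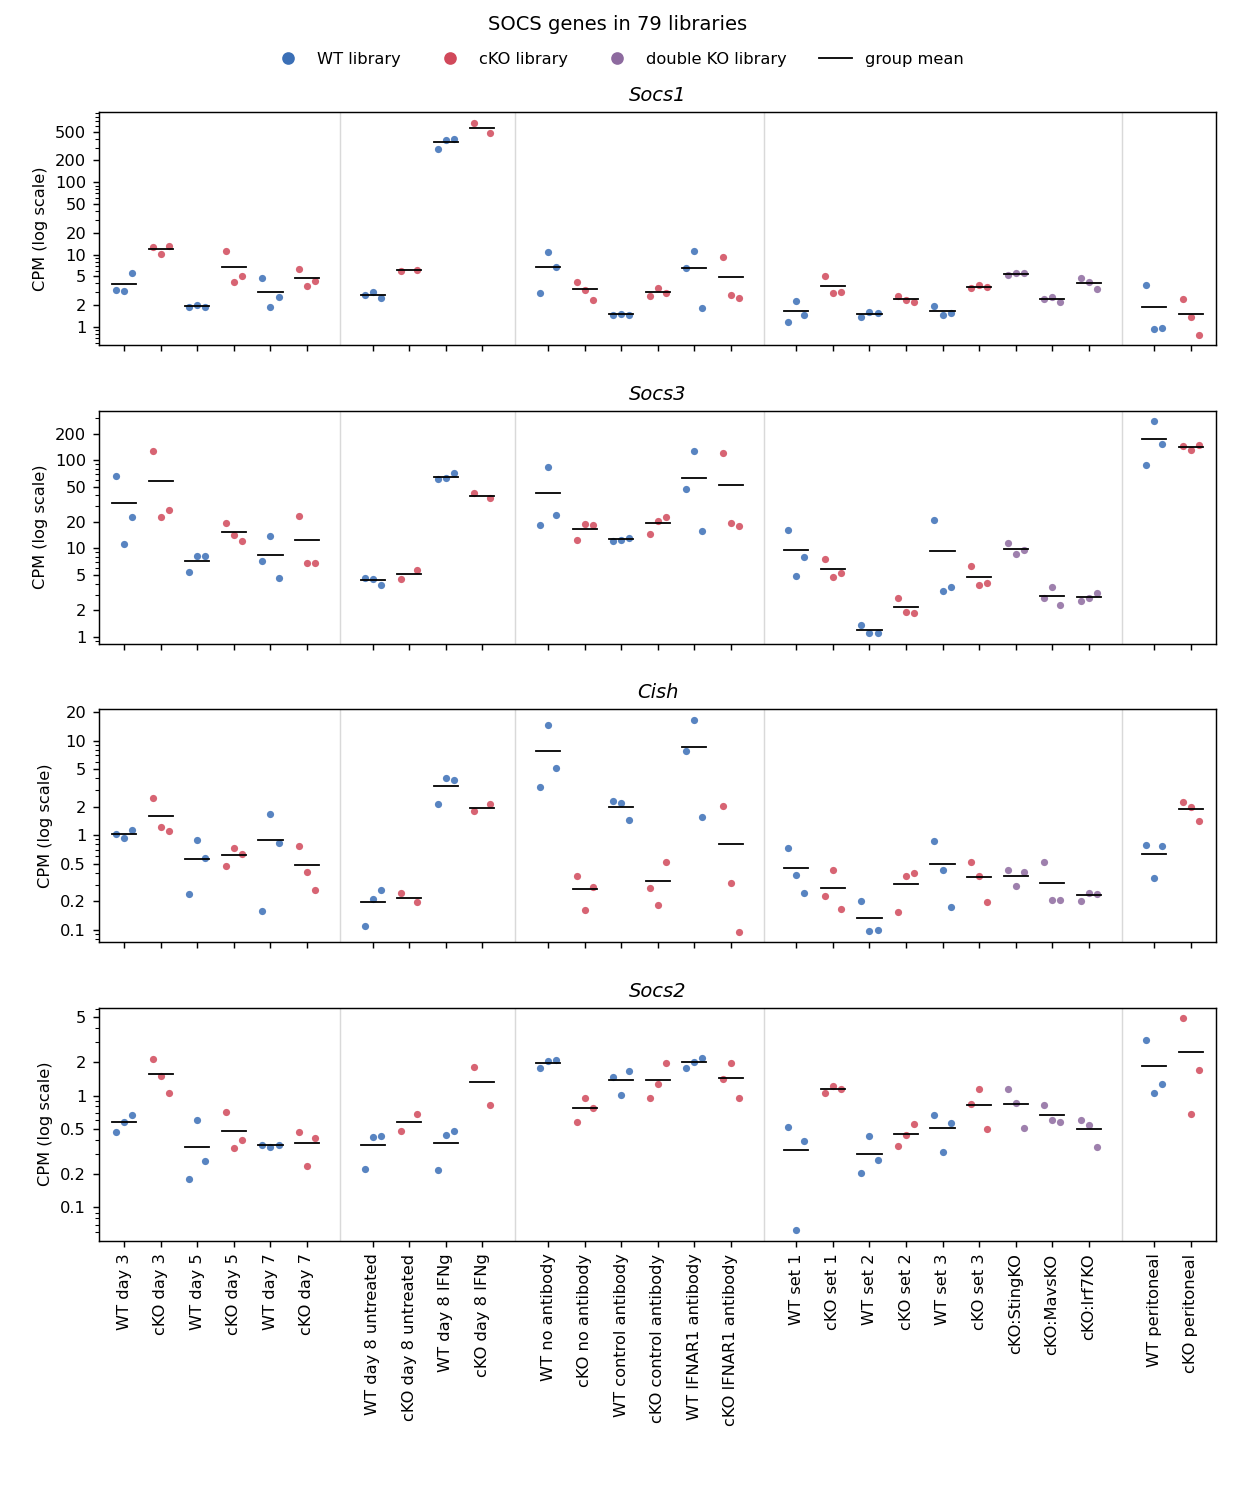
Levels of Socs1, Socs2, Socs3 and Cish in CPM on a log axis in each placed library, by group, with WT and cKO apart. Each point is 1 library. Socs1 reaches 286 to 665 CPM under IFNγ, and Socs3 spreads widely within the day 3 and the antibody groups.

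Socs3, which blocks signalling from gp130 cytokine receptors, varied widely between replicates in several groups, and its genotypes overlapped in 8 of 12 comparisons. On day 3 it had 65.5, 11.1 and 22.5 CPM in WT and 126, 23 and 27.1 CPM in cKO, with overlap (0.83 ± 0.68, adjusted p = 0.528). Replicate 1 was the highest in both genotypes. On day 5 the genotypes were apart, at 5.43, 8.22 and 8.25 CPM in WT and 19.4, 14.2 and 12.3 CPM in cKO, but the difference was not called (1.06 ± 0.72, adjusted p = 0.573). Within WT the fall from day 3 to day 5 was not called either (-2.17 ± 0.73, adjusted p = 0.12, against 0.0063 with no filter), and no member was called in WT, where 2.64% of genes were. Of the steps from day 5 to day 7, no member was called in WT or cKO (0.238% and 0.0564% of genes). In the BMDM sets WT replicate 1 stood above the rest in sets 1 and 3, at 16.1 and 20.8 CPM against 3.31 to 7.98 CPM in the other WT libraries, and Socs3 was called in none of the 3 sets. With no filter it was called in all 3, lower in cKO in set 1 (-0.69, adjusted p = 0.00117) and set 3 (-0.92, adjusted p = 4.32e-06) and higher in set 2 (0.91, adjusted p = 0.000294). Set 2 was also called with only its groups compared (0.90, adjusted p = 0.00896), and set 3 without WT replicate 2 (-1.39, adjusted p = 0.0169) or 3 (-1.36, adjusted p = 0.0259).

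Socs2, a STAT5-induced inhibitor of growth hormone signalling, was, with Cish, the lowest of the inhibitors in CPM per kb. On day 3 its raw counts were 7, 10 and 12 in WT and 34, 22 and 20 in cKO, that is 0.477, 0.586 and 0.673 CPM against 2.13, 1.5 and 1.04 CPM. The groups did not overlap and the difference was called (1.41 ± 0.41, adjusted p = 0.0455), but not with the replicate number as a block (1.37, adjusted p = 0.0531), by DESeq2 (adjusted p = 0.0574), with RLE scaling (adjusted p = 0.0504) or with no filter (adjusted p = 0.0887). It was lost in 11 of 18 fits that left out 1 library, among them each WT day 3 library and cKO day 3 replicates 1 and 2, with the highest adjusted p of 0.208 without cKO replicate 1. In cKO, Socs2 fell by 1.68 ± 0.41 on the log2 scale from day 3 to day 5, to 0.710, 0.343 and 0.402 CPM (adjusted p = 0.0355), the only member called there among 3.59% of genes. That call was lost without WT day 3 replicate 2, cKO day 3 replicate 1 or 2, cKO day 5 replicate 2 or 3, or cKO day 7 replicate 3 (adjusted p up to 0.19). In set 1, counts of 12, 2 and 8 in WT and 32, 37 and 35 in cKO gave 1.90 ± 0.46 (adjusted p = 0.00209), which was lost in the counts of 1 strand (adjusted p = 0.115). Without antibody, Socs2 was lower in cKO, at 0.586, 0.960 and 0.770 CPM against 1.75, 2.02 and 2.07 CPM in WT (-1.35 ± 0.34, adjusted p = 0.0259). That call was lost without WT replicate 2 or 3, without any 1 cKO library (adjusted p up to 0.121, without cKO replicate 1) and with no filter (adjusted p = 0.0538). The genotype difference of Socs2 thus went in opposite directions on day 3 and without antibody on day 6, and a test between these experiments was not run.

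IFNγ for 12 h raised 3 inhibitors in both genotypes on day 8. Socs1 had 286, 383 and 398 CPM in WT with IFNγ, against 2.53 to 3.07 CPM untreated, a log2 fold change of 7.0 ± 0.24 (adjusted p = 1.18e-07). In cKO it had 665 and 477 CPM against 5.99 and 6.15 CPM (6.55, adjusted p = 1.18e-06). Treated libraries were far above all untreated ones. Socs3 had 61.5, 62.6 and 71.9 CPM in WT with IFNγ against 3.84 to 4.60 CPM untreated (3.91 ± 0.16, adjusted p = 2.1e-07), and 42.1 and 37.1 CPM in cKO against 4.54 and 5.66 CPM (2.95, adjusted p = 6.79e-06). Cish had 2.14, 4.01 and 3.85 CPM in WT, from 20, 27 and 32 counts, against 1 to 3 counts untreated (3.96 ± 0.46, adjusted p = 9.39e-05). In cKO it had 1.80 and 2.12 CPM, from 3 and 18 counts, against 3 and 2 counts (3.12, adjusted p = 0.00299). These 6 calls held under every alternative that tested them and without any 1 of the 10 libraries. Cish passed the filter on low counts only through IFNγ libraries, where it was high, so its adjusted p values are not separate support. When 1 cKO library was left out, a cKO group held 1 library, and such fits add no support for the cKO calls. Without cKO IFNγ replicate 2, the Cish estimate in cKO was 2.92 and rested on 3 treated counts. Promoter letters of these 3 inhibitors are printed above. Background was high, with 40.1% of genes called in WT and 33.6% in cKO, against 6 of 7 members tested in WT and 5 of 7 in cKO.

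The receptor chains moved less, and not together. Ifngr1 fell in WT from 102, 143 and 113 CPM to 65.7, 71.8 and 67.8 CPM (-0.80, adjusted p = 0.0136) and in cKO from 97.3 and 110 CPM to 21.0 and 43.3 CPM (-1.61, adjusted p = 0.0017). Ifnar2 rose in WT from 59.1, 68.8 and 59.6 CPM to 87.9, 90.2 and 86.3 CPM (0.50, adjusted p = 0.0237) and in cKO from 60.3 and 73.9 CPM to 141 and 103 CPM (0.85, adjusted p = 0.0061). Ifngr2 rose in WT from 112, 118 and 112 CPM to 161, 164 and 169 CPM (0.53, adjusted p = 0.0227), and in cKO had 76.4 and 120 CPM against 110 and 124 CPM (-0.23, adjusted p = 0.393). Ifnar1 was not called in either genotype. The WT calls of Ifnar2 and Ifngr2 were lost without any 1 of the WT IFNγ libraries or the WT untreated libraries, except that of Ifnar2 without untreated replicate 2 (adjusted p up to 0.0968 and 0.0868), and with no filter (0.106 and 0.0695), and that of Ifnar2 also with replicate number as a block (0.50, adjusted p = 0.0512). The Ifngr1 call in WT was lost without WT untreated replicate 2 or WT IFNγ replicate 3 (adjusted p up to 0.0514). With only the 2 groups fitted, the cKO calls of Ifnar2 (adjusted p = 0.12) and Ifngr1 (adjusted p = 0.0671) were lost, and that of Ifnar2 also without cKO untreated replicate 1 (adjusted p = 0.069).

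Between genotypes under IFNγ, Socs3 was 1.66-fold lower in cKO (-0.73 ± 0.16, adjusted p = 0.0363), the only member called where 4.83% of genes were. The call rested on few libraries, since it was lost without any 1 WT library or any 1 untreated cKO library (adjusted p up to 0.143), with only the 2 groups fitted (adjusted p = 0.251), in the counts of 1 strand (adjusted p = 0.0537) and with the replicate number as a block (-0.72, adjusted p = 0.13). Ifngr2 (-0.73 ± 0.18, adjusted p = 0.0502), Ifngr1 (-1.01 ± 0.26, adjusted p = 0.054) and Ifnar1 (-0.57 ± 0.19, adjusted p = 0.104) had lower estimates in cKO, and Socs1 (0.68 ± 0.19, adjusted p = 0.0721) and Ifnar2 (0.46 ± 0.17, adjusted p = 0.136) higher ones. The shallow library, cKO IFNγ replicate 1, was the more extreme cKO library in each of these 5 genes. Without it Ifngr1 was at -0.64 (adjusted p = 0.0493) and Ifngr2 at -0.44 (adjusted p = 0.0361). Without replicate 2 in its place, Ifngr1 was at -1.72 and Ifngr2 at -1.14, and the lone cKO library is then assumed to vary like the other groups.

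A change of the IFNγ effect between genotypes was not called for any member, nor for any gene (0.0% of 13075, 1105 at an unadjusted p under 0.05). The estimate for Socs3 was -0.97 ± 0.25 (adjusted p = 0.364), for Ifngr1 -0.81 ± 0.35 (adjusted p = 0.585) and for Ifngr2 -0.76 ± 0.25 (adjusted p = 0.508). Without cKO IFNγ replicate 2, the estimates were -0.72 for Ifnar1, -1.52 for Ifngr1, -1.17 for Ifngr2 and -0.89 for Socs3. That fit holds the shallow library, in which 57.1% of reads were unmapped, as its single treated cKO sample.

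**Figure D4:**
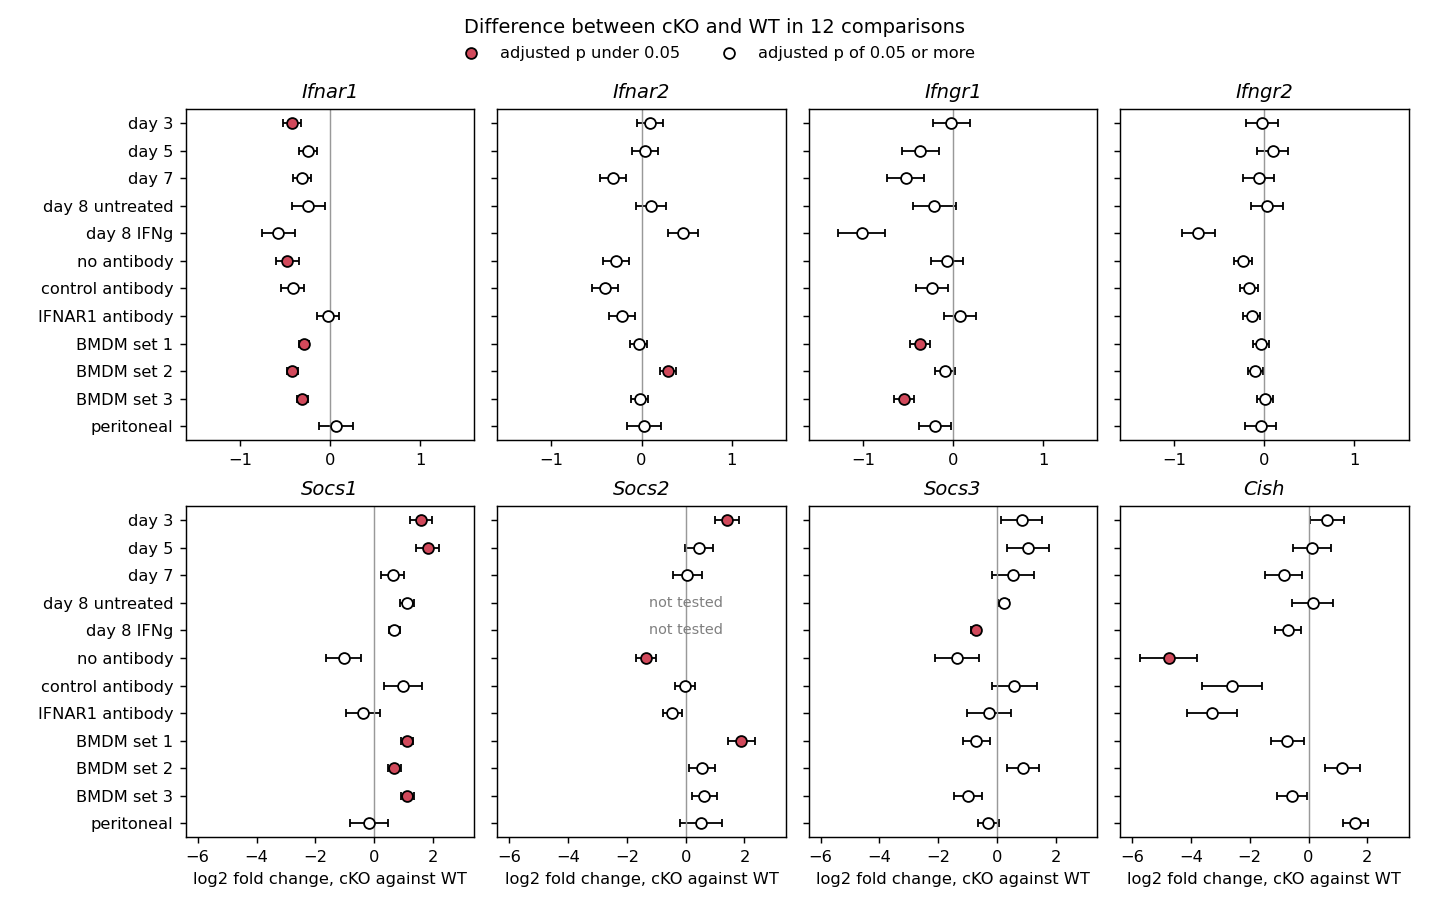
Log2 fold change of cKO over WT for 8 members in the 12 comparisons of genotype. Points are estimates of edgeR's quasi-likelihood test, bars are SEs, and filled red points have an adjusted p under 0.05. Ifnar1 lies below 0 in 11 comparisons and Socs1 above 0 in 9, while Cish spans -4.75 to 1.59.

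The antibody experiment held the largest genotype difference among the receptor and inhibitor genes, in Cish. Without antibody, Cish had 3.20, 14.8 and 5.16 CPM in WT, from 62, 314 and 102 counts, and 0.373, 0.16 and 0.28 CPM in cKO, from 7, 2 and 4 counts. No library overlapped, and cKO was 26.8-fold lower (-4.75 ± 0.97, adjusted p = 0.00954). Cish passed the filter on low counts only through WT libraries, where it was high, so this adjusted p is not separate support. With 2 to 7 counts in each cKO library, the size of the fold change is uncertain. The call was lost without cKO replicate 2 (-4.52, adjusted p = 0.0562), and without WT replicate 2, the highest library, the estimate was -3.86 and still called. Over all fits that left out 1 library it ranged from -5.11 to -3.86. With control antibody, Cish had 2.31, 2.21 and 1.46 CPM in WT and 0.277, 0.18 and 0.518 CPM in cKO, again without overlap (-2.60 ± 1.01, adjusted p = 0.191). With IFNAR1 antibody it had 7.68, 16.6 and 1.57 CPM in WT and 2.03, 0.314 and 0.0952 CPM in cKO, with 1 cKO library above the lowest WT library (-3.29 ± 0.86, adjusted p = 0.117). In that arm the difference was called without cKO replicate 1 (-5.28, adjusted p = 0.0257) or without WT replicate 3 (-3.77, adjusted p = 0.0189).

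Called members numbered 3 without antibody (7.1% of 17191 genes), 0 with control antibody (4.45%) and 0 with IFNAR1 antibody (0.675%). When the control antibody groups were fitted alone, 6 members passed, among them Cish (-2.62, adjusted p = 0.00176), Ifnar1 (-0.40, adjusted p = 0.00284), Ifnar2 (-0.40, adjusted p = 0.00265) and Socs1 (0.99, adjusted p = 0.0151). The share of all genes called in that fit was not computed, so the 6 are not read as a result about the members. The fit over all 18 libraries shares 1 estimate of spread per gene.

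Between antibody arms, Socs1 in WT was higher with IFNAR1 antibody, at 6.45, 11.2 and 1.85 CPM, than with control antibody, at 1.47, 1.53 and 1.46 CPM (2.11 ± 0.63, adjusted p = 0.0446). It was lower with control antibody than without antibody, at 2.94, 10.8 and 6.63 CPM (-2.18 ± 0.63, adjusted p = 0.0425). The 2 comparisons share the control antibody libraries. The first call was lost without WT IFNAR1 replicate 2 (1.48, adjusted p = 0.192) and in 11 other fits, which left out WT IFNAR1 replicate 1, any 1 control antibody library, any 1 cKO library without antibody or WT no-antibody replicate 3, with only the 2 groups fitted (adjusted p = 0.124) and with the newer form of the edgeR fit (adjusted p = 0.0517). The second was lost in 11 of 18 fits, which left out any 1 control antibody library, any 1 cKO library without antibody, or WT no-antibody replicate 2 or 3, with the highest adjusted p of 0.178 without replicate 2 (-1.68). Each was the only member called in its comparison, beside 9.89% and 8.9% of genes. In cKO, no member was called for IFNAR1 against control antibody (4.03% of genes) or for control against no antibody (1.46%). Socs3 in WT had 47.2, 128 and 15.9 CPM with IFNAR1 antibody and 12.2, 12.6 and 13.2 CPM with control antibody, apart but not called (2.33 ± 0.78, adjusted p = 0.0641). It was called without WT no-antibody replicate 2 (adjusted p = 0.0489), without WT IFNAR1 replicate 3 (adjusted p = 0.0107) or without cKO IFNAR1 replicate 1 (adjusted p = 0.0205).

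Socs3 was above 40 CPM in 4 libraries of this experiment. WT without antibody replicate 2 had 84.4 CPM of Socs3, WT with IFNAR1 antibody replicates 1 and 2 had 47.2 and 128 CPM, and cKO with IFNAR1 antibody replicate 1 had 120 CPM. The other 14 libraries had 12.2 to 24.2 CPM. Socs1 was at 6.45 to 11.2 CPM in these 4, and also at 6.63 CPM in WT without antibody replicate 3. In cKO with IFNAR1 antibody replicate 1, Cish was at 2.03 CPM, below WT libraries with less Socs3. A list of IFNγ-responsive genes summed to 643, 289, 555 and 507 CPM in these 4 libraries and to 109 to 277 CPM in the others. Its part in the results was not tested. Canonical interferon-stimulated genes summed to 33.8 to 36.7 CPM in WT and 190 to 285 CPM in cKO with IFNAR1 antibody, against 37.3 to 41.0 and 235 to 381 CPM with control antibody.

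**Figure D5:**
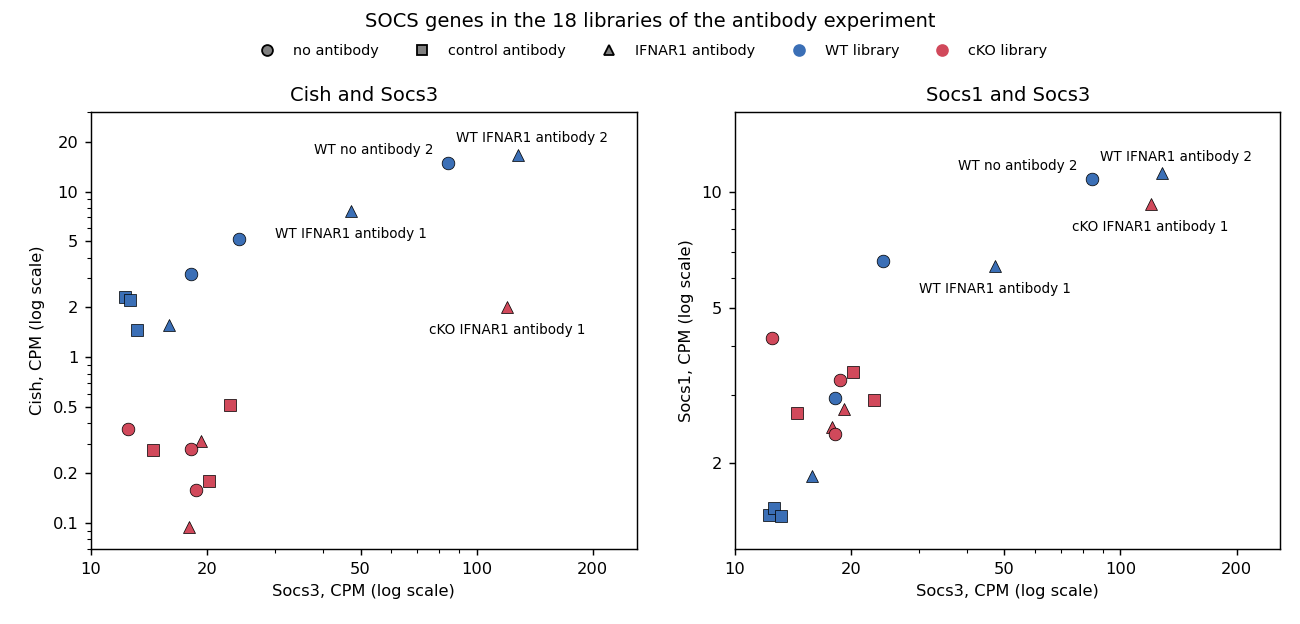
Cish against Socs3 (left) and Socs1 against Socs3 (right) in CPM on log axes in the 18 antibody libraries. Each point is 1 library, coloured by genotype with a symbol for each arm. The libraries with over 40 CPM of Socs3 also have 6.45 to 11.2 CPM of Socs1, and at like Socs3 levels the cKO points have less Cish.

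In peritoneal macrophages no member was called (0.971% of 12361 genes). Cish had 0.786, 0.354 and 0.773 CPM in WT and 2.27, 2.0 and 1.43 CPM in cKO, with no overlap and 3.02-fold higher in cKO (1.59 ± 0.43, adjusted p = 0.205). The direction was the opposite of that in the antibody experiment. Its counts were 7, 5 and 17 in WT and 53, 38 and 11 in cKO. Socs3 had 88.8, 277 and 154 CPM in WT and 144, 131 and 149 CPM in cKO (-0.30 ± 0.35), with the WT libraries on both sides of cKO. The remaining members tested overlapped between genotypes, while canonical interferon-stimulated genes did not, at 218 to 231 CPM in WT and 493 to 680 CPM in cKO.

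The double KOs were compared with the mean of the 3 cKO sets. The fit treats the 9 cKO libraries as separate, although sets 1 and 3 are not independent of each other. The SEs and adjusted p values below may therefore be too small. In H3.3cKO:StingKO, Socs1 had 5.14, 5.62 and 5.47 CPM, above the 2.23 to 5.04 CPM of the 9 cKO libraries (0.77 ± 0.16, adjusted p = 0.000602). That call held against each cKO set alone and without any 1 library. Socs3 was at 11.4, 8.75 and 9.65 CPM, against 1.87 to 7.63 CPM in cKO (1.34 ± 0.36, adjusted p = 0.00515), but was not called against set 1 (0.76, adjusted p = 0.252) or set 3 (1.07, adjusted p = 0.0836) alone. Ifnar1 had 150, 158 and 157 CPM, below all cKO libraries (-0.18 ± 0.05, adjusted p = 0.00422), and was not called against set 3 alone (adjusted p = 0.122). Ifnar2 (0.25 ± 0.07, adjusted p = 0.0096) and Ifngr1 (-0.23 ± 0.09, adjusted p = 0.0474) were also called, and both calls were lost against 2 of the 3 sets. The call of Ifnar2 was also lost without StingKO replicate 1 or 3, and that of Ifngr1 in 17 of 27 fits that left out 1 library. These 5 members stand beside 36.1% of genes called. In H3.3cKO:MavsKO no member was called (8.79% of genes), with Socs1 at 2.43, 2.57 and 2.19 CPM (-0.41 ± 0.17, adjusted p = 0.16). Against cKO set 3 alone, Socs1 was called lower (-0.59, adjusted p = 0.0485). In H3.3cKO:Irf7KO, Ifnar1 had 145, 160 and 162 CPM (-0.18 ± 0.05, adjusted p = 0.0178), Ifnar2 74.3, 78.7 and 81.3 CPM (-0.32 ± 0.08, adjusted p = 0.01) and Ifngr2 104, 119 and 117 CPM (-0.32 ± 0.07, adjusted p = 0.00637), beside 9.85% of genes. Each of these 3 calls was lost without Irf7KO replicate 1 (adjusted p = 0.177, 0.0784 and 0.0752) and against cKO set 3 alone (adjusted p = 0.494, 0.42 and 0.161). That of Ifnar1 was also lost against set 1 alone (adjusted p = 0.0501), with no filter (0.322), with 1 strand (0.055) and with only the groups compared (0.0593). The H3.3 genes were lower in Irf7KO than in the cKO sets, with H3f3a at -0.91 (adjusted p = 4.67e-05) and H3f3b at -0.73 (adjusted p = 0.00148). H3f3b had 71.8 to 147 CPM there, against group means of 194 to 203 CPM in the cKO sets. Residual H3.3 mRNA thus differed along with Irf7, and its part in these values was not tested. Libraries of set 3 and of Irf7KO list 54146 genes, and those of the other sets and double KOs list 55536. Set 3 thus shares its gene list with Irf7KO, while the labels tie no set to a double KO. Set and double KO cannot be told apart in comparisons with the mean of the sets, and the 3 share their cKO libraries.

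Downstream of the receptors, 12 kinases, STATs and Irf9 were tested. On day 3, 5 rose and 0 fell in cKO, where 7.73% of all genes were called (median log2 fold change 0.288, against 0.036 over all genes). Stat2, part of the complex that type I interferons activate, was at 252 CPM in cKO and 35.4 CPM in WT (2.83 ± 0.44, adjusted p = 0.000982). Irf9, the DNA-binding subunit of that complex, was at 84.6 against 25.2 CPM (1.75). On day 5, 4 rose (2.83% of all genes called), and on day 7 none was called. For Irf9 the cKO effect was smaller on day 7 than on day 3 (-1.72 ± 0.27, adjusted p = 0.0444). Without antibody 3 rose in cKO (7.1% of all genes called) and with control antibody 2 (4.45%), and with IFNAR1 antibody none was called. Against control antibody, IFNAR1 antibody lowered Irf9 in WT (-1.04) and Irf9 (-0.99) and Stat2 (-1.18) in cKO, and raised Stat4 in both. IFNγ raised 7 and lowered 1 in WT, Jak2 from 36.9 to 192 CPM (2.38), and raised 7 in cKO (Jak2 2.77), where 40.1% and 33.6% of all genes were called. In peritoneal macrophages and on day 8 without treatment none was called.

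Of 11 other negative regulators tested, Usp18, which displaces JAK1 from IFNAR2, moved most. On day 3 it was at 138 CPM in cKO and 2.45 CPM in WT (5.82 ± 0.81), the only one of the list called, with a list median of 0.138 against 0.036 over all genes. On day 8 without treatment it was at 77.2 against 19.9 CPM (1.95), and under IFNγ at 829 against 278 CPM (1.58). In the antibody experiment it was higher in cKO in all 3 arms, by 2.40, 2.50 and 2.09 on the log2 scale, the last with IFNAR1 antibody. IFNγ raised 5 of the 11 and lowered 1 in WT (Usp18 by 3.80), and raised 6 in cKO, beside 40.1% and 33.6% of all genes called in either direction. Of the 4 other SOCS genes, Socs7 rose under IFNγ from 30.5 to 98.7 CPM in WT (1.69) and by 1.97 in cKO, and Socs6 fell from 48.6 to 27.3 CPM in WT (-0.83) and by 0.84 in cKO. Of 20 other interferon ligands, at most 1 passed the filter in any experiment and none was called. Il10rb, the shared chain of the IL-10 and type III interferon receptors, fell under IFNγ by 0.95 in WT and 1.2 in cKO. Among 13 tested cytokine receptors, IFNγ raised 6 and lowered 1 in WT, with Il10ra at 2.61, Il2rg at 2.30 and Il4ra at 1.83. Of 10 tested STAT5 targets it raised 2 (Il2ra 4.59 and Pim1 2.28) and lowered 5 in WT. Both shares stand beside the 40.1% of all genes called in WT.

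Over the 18 time course libraries, the genes with log2 CPM most like Socs1 were Plk2 (Pearson r = 0.952), Tnfrsf26 (0.944) and Jak2 (0.942). For Socs3 they were Cwc25 (0.97), Nfkbia (0.959) and Pip5k1a (0.956), and for Socs2 Sys1 (0.906), Snx11 (0.904) and Plekhj1 (0.894). Cish was most like Pdcd7 (0.893), Actr5 (0.874) and Rffl (0.867). The points share days, genotypes and 1 normalization, so these values describe likeness and carry no test.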

How the data were processed

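RNA-seq was analysed from 81 libraries. Per the labels and the methods, the authors trimmed reads with Cutadapt and aligned them with STAR to mm10 (versions not given in the sources used here), and deposited raw counts per gene from STAR without normalization. The column that ignores strand was used. The labels name an rRNA-depletion kit for all libraries, and the methods another kit for peritoneal cells. Groups and replicate numbers came from the labels. The 9 genes, the pathway lists and the tests were chosen with earlier results of these data known.

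Each experiment was fitted apart. Genes passed edgeR's filterByExpr (smallest count 10, total 15) and libraries were scaled by TMM. Contrasts of group means were computed in edgeR (version 4.0.16, with limma 3.58.1 and R 4.3.3) by its quasi-likelihood test, with Benjamini-Hochberg adjustment over every gene that passed, and 0.05 as the threshold. The SE is the log2 fold change over the root of F. Lines for reads not assigned to 1 gene were left out. The lowest chi-square per degree of freedom between libraries of a group was 3.67, so none was a duplicate. The named genes are the 9 members, with values where a comparison turns on them, and up to 3 called genes of each list by size of change, except 1 that is not reported here.

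Alternatives were DESeq2 1.42.0, RLE scaling, no filter, a filter at a mean of 1 CPM, a fit of only the compared groups, the larger of the stranded columns, a block on replicate number, other reference sets and each library left out, besides the newer edgeR fit and a crossed pairing, both chosen after seeing the data. Same-numbered libraries deviated together in every pair (r over 0.1) for cKO against WT on days 3 and 7 and in peritoneal macrophages, day 7 against day 5 in cKO, IFNγ in WT, and control against no antibody in WT. The labels name no shared animal or day.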

Additional observations from a re-analysis of the deposited data

Results flagged for a closer look

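The labels of 2 cKO libraries of day 8 conflict on whether IFNγ was given, so they entered no comparison. With 9674853 and 10498769 counts on genes, they were read in CPM that were not TMM-scaled, beside the 3 WT libraries of day 8 without treatment. The first was above the highest WT library in 5 members, with Ifnar2 at 83.7 CPM (68.8 CPM in WT), Ifngr2 at 135 CPM (118 CPM), Socs1 at 5.17 CPM (3.07 CPM), Socs2 at 0.62 CPM (0.437 CPM) and Socs3 at 7.55 CPM (4.60 CPM). The second was above it in 6 members. Its Socs1 was at 397 CPM from 4167 counts, Socs3 at 34.3 CPM from 360 counts, Cish at 2.38 CPM (0.262 CPM in WT) from 25 counts, and Ifnb1 at 4.57 CPM (0.106 CPM in WT) from 48 counts. Its Ifnar2 was at 86.7 CPM and Socs2 at 0.857 CPM from 9 counts. Its Ifnar1 at 99.8 CPM and Ifngr1 at 40.2 CPM were below the lowest WT libraries (141 and 102 CPM). H3f3a was at 7.34 and 4.76 CPM in them. Their condition was not inferred from these values.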

How the results depend on the processing

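Of 341 single calls of a member recomputed under an alternative, 301 held, 40 were lost and 0 reversed, and with 1 library left out 686 of 804 held and 118 were lost. Member calls on days 3, 5 and 7 numbered 5, and 3 with no filter, with at least 1 CPM and with counts of 1 strand. Between days there was 1, against 3 with no filter and 0 with at least 1 CPM, 1 strand or only the groups compared. Between genotypes on day 8 there was 1, against 5 with no filter, 2 with at least 1 CPM, 0 with 1 strand, 6 by DESeq2, 0 with the replicate block and 4 with the newer fit. Between genotypes in the antibody experiment there were 3, against 5 by DESeq2 and 9 with only the groups compared, and between arms 2, against 4 with no filter and by DESeq2, and 1 with only the groups compared and with the newer fit. Double KOs gave 8 calls, against 5 with cKO set 1 and 3 with set 3 as reference. The share of all genes called was not computed for fits of only the groups compared or with 1 library left out. Ifnb1 counts summed to 243, and to 120 in 1 strand column.

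Leaving out each library gave 1 to 5 calls on days 3, 5 and 7, 0 to 3 between days, 0 for the difference between days, 0 to 7 between genotypes on day 8, 8 to 13 for IFNγ, 0 to 4 for its difference between genotypes, 0 in peritoneal macrophages, 0 to 5 between genotypes and 0 to 4 between arms in the antibody experiment, 0 for the difference of the antibody effect, 8 to 11 in the BMDM sets and 4 to 8 in the double KOs.

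With the replicate block, the calls of Socs2 on day 3 (adjusted p = 0.0531) and Ifnar2 under IFNγ in WT (adjusted p = 0.0512) were lost. In both comparisons same-numbered libraries deviated together, though the labels name no pairing. Also lost were Socs3 on day 8 with IFNγ (adjusted p = 0.13) and Socs1 in set 2 (adjusted p = 0.0946), where such libraries did not deviate together. The block moved the calls over all genes from 223 to 399 on day 7, from 38 to 258 and 9 to 33 for day 7 against day 5 in WT and cKO, from 421 to 643 and 573 to 870 for day 5 against day 3, from 7 to 144 for the change of the cKO effect by day 7, from 631 to 153 for cKO against WT with IFNγ and from 251 to 574 for control against no antibody in cKO. For IFNγ in cKO, where same-numbered libraries correlated at -0.187, the numbered block called 3639 genes and the crossed pairing, chosen after seeing the data, 4001. The causes were not tested. Low counts limit Ifnb1, Socs2 and Cish, and 2 libraries per cKO group limit day 8.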
